A study of Rattus norvegicus with 24 samples.

Results

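The genes described here are 58 of the 26689 Ensembl gene IDs in the deposited count table, and they were chosen by measured levels: both kinase modulators, PAIR1 and KIRA9, left them lower after 4 h, while the levels with and without IRE1α induction were alike. Levels are given as CPM, the count of an ID scaled to the total of its library. An ID was kept when the smaller of its uninduced and induced means at 4 h was at least 10 CPM and the induced mean was 0.83 to 1.2 times the uninduced mean. The KIRA9 mean had to be at most 0.8 times, and the PAIR1 mean at most 0.92 times, the smaller of those vehicle means, with all 3 KIRA9 libraries below all 6 vehicle libraries. IDs whose induced and uninduced means differed by 1.5 times or more in either direction at 24 h were left out. The 4 h levels of all groups and the ratio of the vehicle groups at 24 h therefore belong to the choice and are given without a test. The compound libraries at 24 h took no part in it.

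The cells were INS1, rat insulinoma cells that stand in for insulin-secreting beta cells, carrying a doxycycline-inducible mouse IRE1α (Ern1) transgene. Uninduced cells received vehicle without doxycycline. Induced cells received doxycycline with vehicle, with PAIR1 or with KIRA9, and RNA was taken at 4 h and 24 h, with 3 libraries in each of the 8 groups. All groups carry the transgene, no uninduced cells were given a compound, and the labels give no doses, so an action of a compound that does not pass through induced IRE1α cannot be told apart from one that does. No label says whether the 3 libraries of a group are separate cultures, and p-values then measure the spread between these libraries, which may be technical.

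IRE1α is a sensor of unfolded proteins in the membrane of the endoplasmic reticulum. Its kinase domain controls an attached RNase, which splices the mRNA of the transcription factor XBP1 and, when strongly activated, cleaves many other mRNAs at the endoplasmic reticulum. KIRA compounds bind the ATP site of the kinase and attenuate the RNase, and the series' title presents PAIRs as partial antagonists that separate its outputs. The deposited table gives IDs without gene names, and 0 of the 26689 matched the gene table used here. The roles of the members, pathway lists and markers of beta or other cells were therefore not analysed here, the induced Ern1 gene was not checked by name, and 4 of the 58 IDs are printed.

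Library totals were between 12.6 and 23.8 M counts. All 58 members passed the low-count filter of the test. In 6 libraries, a set of 41 IDs took 0.67 to 0.74% of counts, against 0.0705 to 0.0853% in the other 18. The libraries were found by a search for the commonest split by level that cuts across groups. The 41 IDs are those higher in all 6 than in every other library, so the gap in share follows from the choice. The 6 libraries were replicate 2 of uninduced cells at 4 h and at 24 h, replicate 3 of induced cells at 4 h, replicates 1 and 2 of induced cells at 24 h, and replicate 1 of PAIR1 at 24 h. The set held 1 member, the tenth lowest by its KIRA9 ratio, which stood at 343 to 509 CPM in these 6 libraries and at 194 to 245 CPM in the others. Without the uninduced and induced 4 h libraries of the set, this ID no longer met the rule, which then gave 55 IDs, 49 of them among the 58. For the 6 induced vehicle libraries 1 label, the time characteristic, gives the opposite time to all other labels. The times in the titles were used, and with the opposite times the rule gave 21 IDs, 12 of them among the 58.

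At 4 h the members were lowered by modest amounts. The KIRA9 level was 0.577 to 0.798 times the smaller vehicle mean, with a median of 0.758, and the PAIR1 level was 0.611 to 0.919 times, with a median of 0.864. Over the 6721 IDs that met the level limit and both limits on the vehicle ratios, the medians were 1.01 for KIRA9 and 1.01 for PAIR1. Of the 58, 33 had a KIRA9 ratio of at least 0.75 and 5 had one of at most 0.7. The PAIR1 ratio was 0.85 to 0.92 in 38. The rule asked for no overlap with KIRA9 alone, and the PAIR1 libraries overlapped with the vehicle libraries in 20 members. The KIRA9 mean was below the PAIR1 mean in 56 members and above it in 2, an order that the lower limit for KIRA9 favours. Over the 6721 IDs the KIRA9 mean was the lower in 50.5%.

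The KIRA9 limit fell in a continuous range of values. The 3 members nearest to it had ratios of 0.798, 0.798 and 0.798, and the 3 IDs that failed on it alone by the least had 0.801, 0.801 and 0.803, with PAIR1 ratios of 0.862, 0.882 and 0.877.

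**Figure D1:**
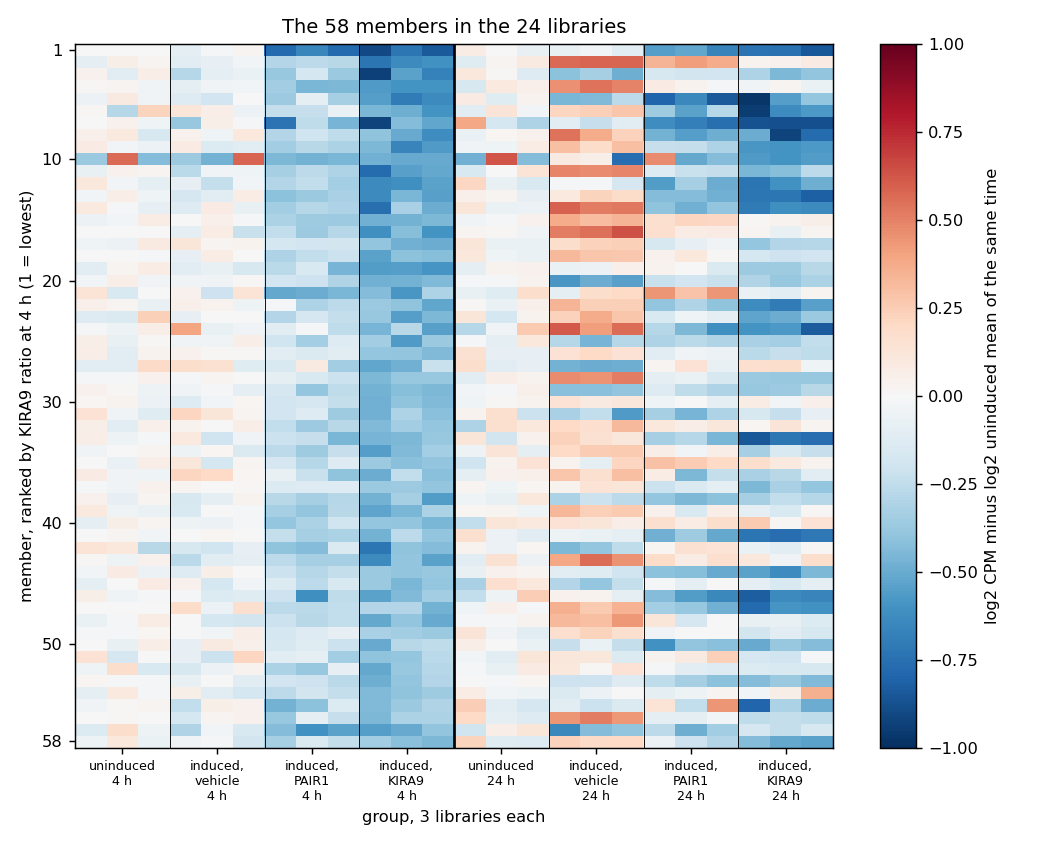
Each row is 1 of the 58 members, ranked from the lowest KIRA9 ratio at 4 h, and each column is 1 library, with 3 per group. Colour gives log2 CPM minus the log2 uninduced mean of the same time, blue for lower and red for higher, with the scale ending at 1 in both directions. The 4 h columns of KIRA9 are blue because the rule asked for it. Those of PAIR1 are mostly blue, since the rule limited only the PAIR1 mean. At 24 h rows differ, and the row ranked 10 is red in 1 uninduced and 1 induced library at 4 h.

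Averaged over the members on a log scale, the level was 82.7 ± 0.316% of uninduced cells with PAIR1 at 4 h (SD, n = 3) and 72.5 ± 1.82% with KIRA9, against 97.9 ± 1.40% in induced cells with vehicle. At 24 h the same average was 89.3 ± 1.8% with PAIR1 and 80.0 ± 1.42% with KIRA9, against 105.8 ± 0.261% in induced cells with vehicle. These averages use CPM. Over the 6721 IDs the median CPM ratio to uninduced cells at 24 h was 1.096 in induced cells with vehicle. It was 1.02 with PAIR1 and 0.990 with KIRA9. The induced average of the members therefore shows no rise beyond that of the 6721 IDs, and part of its gap to the compounds is general. The libraries of the 4 treatments did not overlap at 24 h, with KIRA9 at 78.7 to 81.5% and PAIR1 at 88.1 to 91.3%. The 4 h averages were fixed by the choice of members, and those with compound at 24 h were not.

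**Figure D2:**
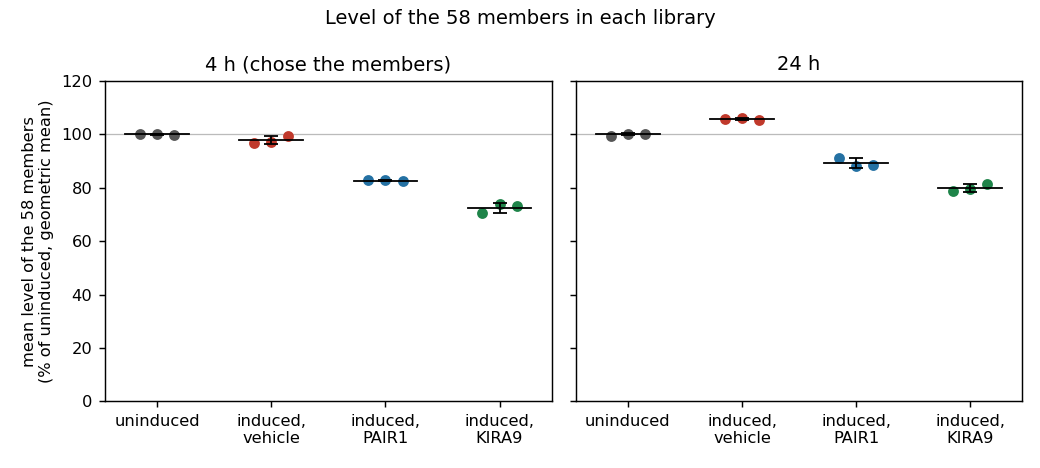
The vertical axis is the geometric mean CPM of the 58 members as a percent of uninduced cells of the same time, and each point is 1 library, with lines at the group mean and bars of 1 SD (n = 3). The 4 h values chose the members. At 24 h the KIRA9 libraries sit at 78.7 to 81.5% and the PAIR1 libraries at 88.1 to 91.3% of uninduced cells.

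The member lowered most by both compounds was ENSRNOG00000013520. At 4 h it stood at 138, 139 and 138 CPM in the uninduced libraries and 129, 137 and 141 CPM in the induced ones. The PAIR1 libraries were at 80.5, 88.1 and 80.5 CPM and the KIRA9 libraries at 73.9, 84.0 and 77.1 CPM. Both compound groups lay far below the vehicle groups and overlapped with each other. Its ratios of 0.577 for KIRA9 and 0.611 for PAIR1 were the lowest of all members for both compounds.

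ENSRNOG00000013520 was also low with both compounds at 24 h. The compound libraries of that time took no part in choosing it, and of the vehicle libraries the rule used the ratio of the means. Uninduced cells held 152, 144 and 137 CPM and induced cells 137, 141 and 134 CPM, while PAIR1 gave 98.5, 100.5 and 90.7 CPM and KIRA9 gave 86.3, 86.2 and 80.4 CPM. No compound library reached a vehicle library, and the highest KIRA9 library lay below the lowest PAIR1 library. Against uninduced cells the log2 difference was -0.77 ± 0.05 (SE) with KIRA9 and -0.61 ± 0.05 with PAIR1, with adjusted p = 3.0e-11 and 7.9e-10 in edgeR's quasi-likelihood test, Benjamini-Hochberg adjusted over 13760 IDs. Against induced cells it was -0.57 ± 0.05 and -0.40 ± 0.05 (adjusted p = 6.2e-10 and 2.2e-07 in edgeR). The difference of PAIR1 from KIRA9, 0.16 ± 0.05, was called in edgeR with adjusted p = 0.023. That call was lost without PAIR1 replicate 1 (0.084), PAIR1 replicate 2 (0.12), KIRA9 replicate 3 (0.13) or the 6 libraries with the 41-ID set (0.13), and the adjusted p in edgeR and DESeq2 over all alternatives ran from 0.0085 to 0.13.

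**Figure D3:**
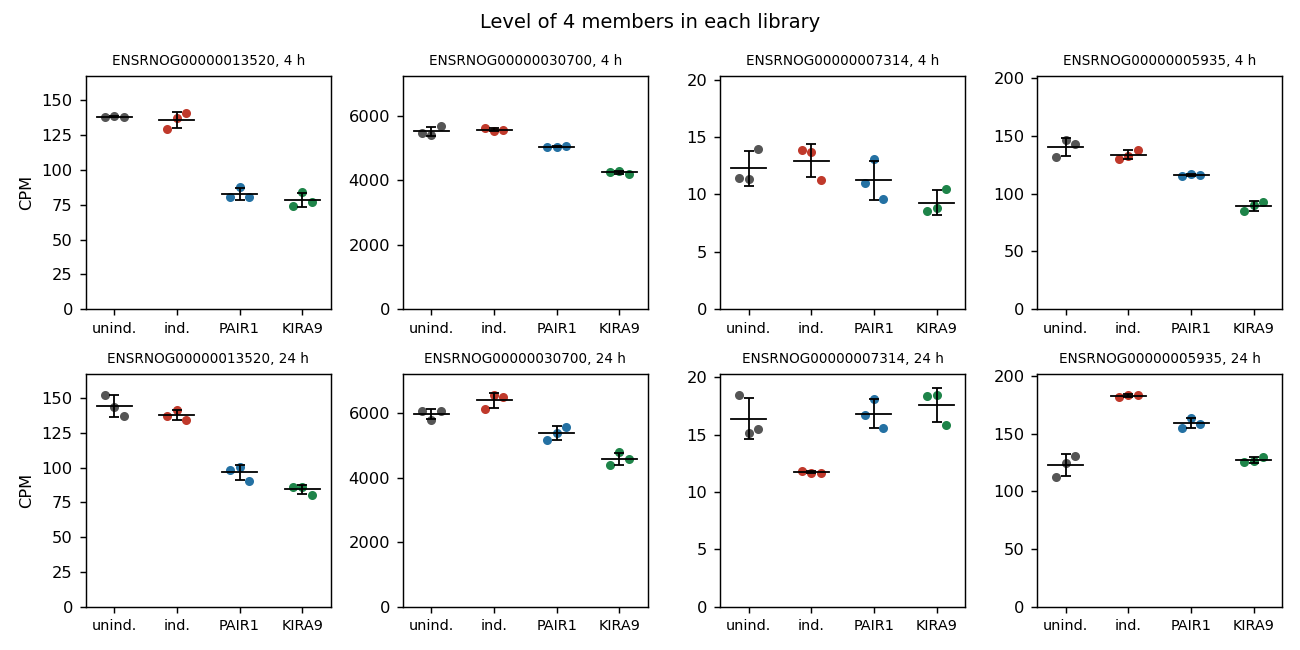
The vertical axes give CPM from 0 for the 4 printed members, at 4 h in the upper row and at 24 h in the lower row, and each point is 1 library, with lines at the mean and bars of 1 SD (n = 3). ENSRNOG00000013520 is low with both compounds at both times. ENSRNOG00000007314 at 24 h is low in induced cells with vehicle, at 11.7 to 11.8 CPM, and ENSRNOG00000005935 at 24 h is highest in induced cells, at 181 to 184 CPM.

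The comparison with uninduced cells at 24 h asked which members were still below cells that had received neither doxycycline nor a compound. With KIRA9, 36 of the 58 members fell and 0 rose. Among all 13760 IDs tested 10.8% fell and 12.6% rose, and among the 6721 IDs that met the level and vehicle limits 12.5% fell and 14.5% rose. The edgeR count of 0 that rose was also 0 at an unadjusted p below 0.05, and 0 in DESeq2. All 3 KIRA9 libraries lay below all 3 uninduced libraries in 40 members, or 69%, against 17.6% of all IDs tested and 19.5% of those that met the limits. The median log2 difference of KIRA9 from uninduced cells was -0.32 over the members and -0.01 over all IDs tested, and it was -0.47 over the 36.

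With PAIR1, 28 members fell relative to uninduced cells and 3 rose, against 14.3% and 13.7% of all IDs tested and 11.2% and 14.3% of those that met the level and vehicle limits. The median log2 difference of PAIR1 from uninduced cells was -0.16 over the members and -0.00 over all IDs tested. The PAIR1 libraries lay below all 3 uninduced libraries in 26 members, or 44.8%, against 16.2% of all IDs tested and 11.9% of those that met the limits.

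Both comparisons share the uninduced libraries, so their values are set side by side. Over the 58 members the ratio to uninduced cells at 24 h ran from 0.544 to 1.11 with KIRA9, with a median of 0.798, and from 0.592 to 1.31 with PAIR1, with a median of 0.914. Over the 6721 IDs the medians were 0.990 and 1.02. Members on both sides of 50 CPM in uninduced cells at 4 h were called. Of the 22 at that level or more, 14 fell with KIRA9 and 9 with PAIR1. Of the 36 below it, 22 fell with KIRA9 and 19 with PAIR1. Shares of other IDs called at these levels were not computed, so these counts are a description.

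The largest fall from uninduced cells at 24 h with KIRA9 was in the member ranked 7 by its KIRA9 ratio at 4 h, from 36.8 ± 9.85 to 20.01 ± 0.0897 CPM (SD, n = 3), a log2 difference of -0.87 ± 0.15 (SE, adjusted p = 9.5e-05 in edgeR). Its uninduced libraries varied widely. The member with the next largest fall after ENSRNOG00000013520 went from 48.6 ± 5.20 to 28.4 ± 1.25 CPM, a log2 difference of -0.77 ± 0.08 (adjusted p = 1.3e-07 in edgeR). With PAIR1 the largest fall was in a weakly expressed member, from 12.8 ± 0.934 to 7.57 ± 0.530 CPM (log2 difference -0.78 ± 0.12, adjusted p = 1.8e-05 in edgeR).

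**Figure D4:**
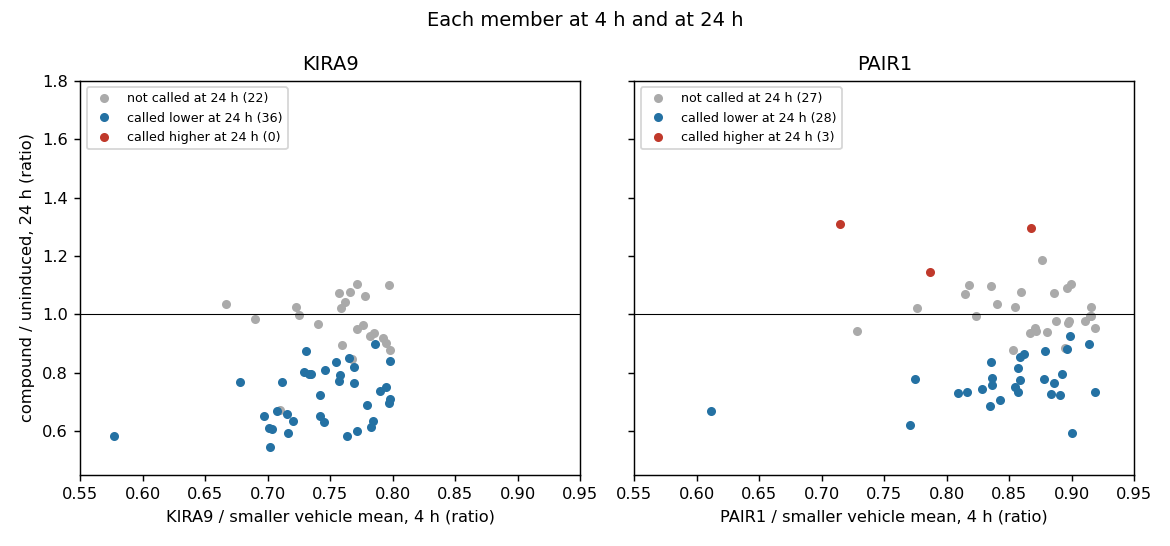
Each point is 1 of the 58 members, with KIRA9 on the left and PAIR1 on the right. The horizontal axis is the compound mean over the smaller vehicle mean at 4 h, limited by the rule to 0.8 and 0.92, and the vertical axis is the compound mean over the uninduced mean at 24 h. Blue points were called lower at 24 h (36 and 28), red points higher (0 and 3) and grey points were not called (22 and 27).

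Depth of the fall at 4 h and level at 24 h were weakly related. Across the 58 members, which are genes and not replicates, the log2 ratios at 4 h and at 24 h against uninduced cells correlated with Pearson's r = 0.31 and Spearman's rho = 0.26 for KIRA9 and with 0.10 and 0.12 for PAIR1. The 4 h and 24 h ratios share no library. The rule cuts the 4 h range short, and over the 6721 IDs that met the level and vehicle limits r was 0.44 for KIRA9 and 0.29 for PAIR1.

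The 3 members that rose with PAIR1 at 24 h relative to uninduced cells were low with PAIR1 at 4 h, as the rule asked of all members. One of them was ENSRNOG00000005935, which had the second lowest KIRA9 ratio, 0.67. At 4 h its uninduced libraries were at 132, 146 and 143 CPM, its induced libraries at 130.4, 133 and 138 CPM, its PAIR1 libraries at 114.95, 117 and 116 CPM and its KIRA9 libraries at 84.6, 90.6 and 92.5 CPM. The compounds were thus well separated for this ID at 4 h, with PAIR1 between vehicle and KIRA9.

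At 24 h ENSRNOG00000005935 stood at 113, 125 and 131 CPM in uninduced cells and at 181, 184 and 183 CPM in induced cells, a ratio of 1.49 that lies just inside the limit of 1.5. PAIR1 gave 155, 164 and 158 CPM and KIRA9 gave 126, 126 and 130.01 CPM. KIRA9 thus lay among the uninduced libraries and PAIR1 lay between both vehicle groups, overlapping with neither. The log2 difference from uninduced cells was 0.35 ± 0.05 (SE) with PAIR1 (adjusted p = 5.8e-06 in edgeR) and 0.06 ± 0.05 with KIRA9 (adjusted p = 0.42). From induced cells it was -0.38 ± 0.05 with KIRA9 (adjusted p = 4.4e-07 in edgeR) and -0.09 ± 0.05 with PAIR1 (adjusted p = 0.12). The latter was called when the 6 compared libraries were fitted alone and with library totals as the scale, and with the conflicting times of the induced libraries it turned to 0.23 and was called higher (adjusted p = 0.00082 in edgeR). Those times also ended the KIRA9 call (-0.06, adjusted p = 0.37). The adjusted p in edgeR and DESeq2 over the alternatives ran from 0.00060 to 0.39 for PAIR1 and from 1.5e-13 to 0.37 for KIRA9.

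Another of the 3 rose from 11.5 ± 1.31 CPM in uninduced cells to 15.1 ± 0.934 CPM with PAIR1 at 24 h (SD, n = 3), a log2 difference of 0.37 ± 0.11 (SE, adjusted p = 0.014 in edgeR). At 4 h it had been at 12.6 ± 1.24 CPM in uninduced cells and 8.96 ± 0.176 CPM with PAIR1, the second lowest PAIR1 ratio of the members. The remaining one went from 53.4 ± 1.52 to 61.0 ± 1.35 CPM, a log2 difference of 0.17 ± 0.04 (adjusted p = 0.0014 in edgeR). It was also the member whose uninduced level differed most between the times, at 113 ± 5.54 CPM at 4 h and 0.474 times that at 24 h.

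Against induced cells with vehicle at 24 h, the members moved both ways. With KIRA9 34 fell and 9 rose, and with PAIR1 30 fell and 10 rose. The share that fell, 58.6% and 51.7%, compares with 30.6% and 24.9% of all IDs tested, and the share that rose, 15.5% and 17.2%, with 32.3% and 30%. All 3 KIRA9 libraries lay below all 3 induced libraries in 41 members, or 70.7%, and so did the PAIR1 libraries in 41, against 44.6% and 39.8% of all IDs tested and 52.3% and 47.6% of those that met the level and vehicle limits. Among the IDs that met the level and vehicle limits, 32.8% fell with KIRA9 and 26.8% with PAIR1, and 34.0% and 31.5% rose. Both comparisons share the induced libraries. Counts against induced cells depended on the scaling, because with library totals in place of TMM the median of all IDs tested moved to -0.16 for KIRA9 and -0.11 for PAIR1. The split was then 39 lower and 4 higher with KIRA9 and 39 lower and 7 higher with PAIR1. With the opposite times of the induced libraries it was 27 lower and 5 higher with KIRA9 and 17 lower and 9 higher with PAIR1. The median log2 difference of the members with PAIR1 then turned from -0.16 to 0.01, and that with KIRA9 went from -0.28 to -0.18. Shares of all IDs called were not computed with library totals or with the opposite times. The shares given above belong to the main fit only.

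The calls against induced cells are also given by the induced level itself. At 24 h the induced mean was above the uninduced mean in 35 members and below it in 23, within the limits of the rule. This split uses CPM, while the calls use TMM scaling. The median CPM ratio of induced to uninduced cells was 1.081 over the members and 1.096 over the 6721 IDs. Of the 6721 IDs, 34.7% had a ratio below 1. The split therefore does not show that induction raised the members more than other IDs. Of the 35, 28 fell with KIRA9 and 24 with PAIR1, and 0 rose with KIRA9 and 2 with PAIR1. Of the 23, 9 rose with KIRA9 and 8 with PAIR1, and 6 fell with each. KIRA9 lowered members relative to uninduced cells in both sets, 20 of the 35 and 16 of the 23. The induced libraries enter both the ratio and the contrasts with induced cells. Likewise, the uninduced libraries enter the ratio and the contrasts with uninduced cells. Shares of other IDs split in this way were not computed, so these counts are a description.

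The deepest falls from induced cells were those with KIRA9. The member with the largest change went from 21.9 ± 1.48 CPM to 9.53 ± 0.909 CPM with KIRA9 and 11.1 ± 1.26 CPM with PAIR1 (SD, n = 3), log2 differences of -1.06 ± 0.14 and -0.87 ± 0.14 (SE, adjusted p = 4.4e-07 and 8.8e-06 in edgeR). The next went from 80.1 ± 2.36 CPM to 34.9 ± 1.18 and 40.8 ± 1.35 CPM, by -1.05 ± 0.07 and -0.86 ± 0.07 (adjusted p = 2.3e-11 and 1.1e-09 in edgeR). Both also stood below their uninduced levels of 15.1 ± 2.87 and 54.9 ± 4.17 CPM.

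The largest rise from induced cells was in ENSRNOG00000007314, one of the least abundant members. At 4 h it was at 11.4, 11.4 and 14.0 CPM in uninduced cells, 13.9, 13.7 and 11.3 CPM in induced cells, 11.02, 13.1 and 9.62 CPM with PAIR1 and 8.57, 8.79 and 10.5 CPM with KIRA9. Its PAIR1 libraries overlapped with the vehicle libraries, and its KIRA9 libraries lay narrowly below them. At 24 h it was at 18.5, 15.2 and 15.5 CPM in uninduced and 11.8, 11.7 and 11.7 CPM in induced cells, and at 16.8, 18.1 and 15.6 CPM with PAIR1 and 18.4, 18.5 and 15.9 CPM with KIRA9. The compounds thus lay above the induced libraries and among the uninduced ones, and the low level at 4 h was not seen at 24 h. The log2 difference from induced cells was 0.73 ± 0.12 with KIRA9 and 0.63 ± 0.12 with PAIR1 (SE, adjusted p = 1.2e-05 and 9.2e-05 in edgeR), and from uninduced cells 0.10 ± 0.11 and 0.01 ± 0.12 (adjusted p = 0.57 and 0.98).

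**Figure D5:**
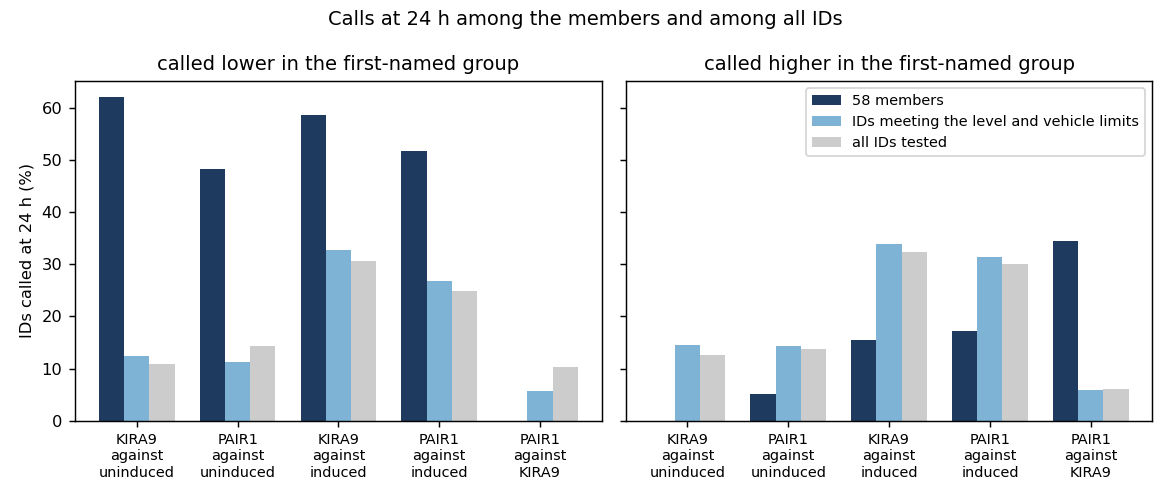
Bars give the percent of IDs called at 24 h by edgeR at an adjusted p below 0.05, for the 58 members, the 6721 IDs that met the level and vehicle limits and all 13760 tested, with calls lower in the first-named group on the left and higher on the right. Among the members 62.1% were lower with KIRA9 than in uninduced cells, against 10.8% of all IDs, and 34.5% were higher with PAIR1 than with KIRA9, against 6.0%. The lower limit for KIRA9 in the rule favours the latter direction.

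The direct comparison of the compounds at 24 h shares no library with the choice of the members. The direction was still favoured by the rule, whose lower limit for KIRA9 picked members with KIRA9 below PAIR1, 56 of the 58 at 4 h. A difference that lasts from 4 h would thus give PAIR1 above KIRA9 here. PAIR1 left 20 members higher than KIRA9 did and 0 lower, against 6.0% and 10.3% of all IDs tested and 5.89% and 5.61% of those that met the level and vehicle limits. The edgeR count of 0 lower was 5 at an unadjusted p below 0.05 and 0 in DESeq2. The lowest PAIR1 library exceeded the highest KIRA9 library in 35 members, or 60.3%, against 21.2% of all IDs tested and 25.6% of those that met the limits. The reverse held in 3 members, or 5.17%, against 14.3% and 9.20%. The median log2 difference of PAIR1 from KIRA9 was 0.14 over the members, with a range of -0.24 to 0.63, and 0.01 over all IDs tested.

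The differences between the compounds were small in most members, at a median of 0.25 on the log2 scale over the 20. The largest was in a member with 14.0 ± 3.26 CPM with PAIR1 and 8.85 ± 1.44 CPM with KIRA9 (SD, n = 3), a log2 difference of 0.63 ± 0.15 (SE, adjusted p = 0.0041 in edgeR). For ENSRNOG00000005935 it was 0.29 ± 0.05 (adjusted p = 0.00013 in edgeR) and for ENSRNOG00000007314 -0.10 ± 0.12 (adjusted p = 0.65). The count of 20 was 13 without the 6 libraries with the 41-ID set, of which PAIR1 replicate 1 belongs to this comparison, and 10 at an adjusted p below 0.01. The doses are not stated, so the treatments are compared as applied.

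The members covered a wide range of abundance with a gap in it. In uninduced cells at 4 h, 36 lay under 50 CPM, 18 from there to 289 CPM, and 4 at 2221 CPM or more. These 4, set apart after their values had been seen, made up 1.34 ± 0.0459% of all counts in uninduced cells at 4 h (SD, n = 3), against 0.311 ± 0.0128% for the other 54. At 4 h their share was 1.22 ± 0.00953% with PAIR1 and 1.02 ± 0.0179% with KIRA9. At 24 h it was 1.37 ± 0.0433% and 1.19 ± 0.0375%, and uninduced cells held 1.47 ± 0.0837% and induced cells 1.63 ± 0.0433%. The table holds 24 IDs at 2000 CPM or more in uninduced cells at 4 h, and the KIRA9 ratios of the 20 that are not members ran from 0.813 to 3.15 with a median of 0.977.

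The most abundant member was ENSRNOG00000030700. At 4 h it was at 5473, 5384 and 5672 CPM in uninduced cells, 5622, 5523 and 5541 CPM in induced cells, 5023, 5026 and 5051 CPM with PAIR1 and 4249, 4277 and 4182 CPM with KIRA9. The 3 levels, vehicle, PAIR1 and KIRA9, did not overlap. At 24 h the libraries were at 6081, 5795 and 6065 CPM in uninduced cells, 6117, 6574 and 6502 CPM in induced cells, 5163, 5397 and 5587 CPM with PAIR1 and 4385, 4785 and 4572 CPM with KIRA9, again without overlap between vehicle, PAIR1 and KIRA9.

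For ENSRNOG00000030700 the log2 difference from uninduced cells at 24 h was -0.38 ± 0.03 with KIRA9 and -0.18 ± 0.03 with PAIR1 (SE, adjusted p = 5.8e-09 and 0.00017 in edgeR). From induced cells it was -0.34 ± 0.03 and -0.14 ± 0.03 (adjusted p = 3.7e-09 and 0.00083 in edgeR), and PAIR1 was above KIRA9 by 0.20 ± 0.03 (adjusted p = 7.5e-05 in edgeR). The PAIR1 difference from induced cells was -0.07 and not called with the conflicting times of the induced libraries (adjusted p = 0.11, over the alternatives in edgeR and DESeq2 2.2e-07 to 0.11). The other 3 abundant members were also lower with KIRA9 than in uninduced cells at 24 h, by -0.31 ± 0.05, -0.25 ± 0.04 and -0.15 ± 0.04 (adjusted p = 2.7e-05, 0.00016 and 0.0089 in edgeR). With PAIR1 they differed from uninduced cells by -0.11 ± 0.05, -0.09 ± 0.04 and -0.03 ± 0.04, none of which was called (adjusted p = 0.079, 0.13 and 0.60 in edgeR).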

How the data were processed

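RNA of 24 INS1 libraries was measured as raw read counts per Ensembl gene ID, deposited by the authors without normalization. Per the labels' protocols, poly(A) RNA was selected and a NEBNext Ultra II kit was used, and per the submitters' processing notes the tools were HISAT2 and HTSeq. Their versions, the genome build, the annotation and the strand setting are not given in the sources used here. Genes that overlap, lie antisense or are near copies can therefore share reads.

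Groups came from the sample titles. The members and lists were chosen with earlier results of these data known. CPM was the count over the column total. The test was that of edgeR 4.0.16 (R 4.3.3): filterByExpr at a minimum count of 10 kept 13760 IDs, libraries were scaled by TMM, and 1 quasi-likelihood fit of 8 group means to 24 libraries gave each contrast, adjusted by Benjamini-Hochberg over the 13760. Calls are those with an adjusted p below 0.05. Log2 differences come from this fit and can differ slightly from CPM ratios. DESeq2 1.42.0 was an alternative.

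Members were to be named by the lowest ratios at 4 h, by the largest called changes at 24 h without overlap of libraries (31 picks, 20 members), and by pathway lists, which could not be used without gene names. At most 2 IDs that fell and 2 that rose are printed, and ENSRNOG00000030700, the most abundant, was chosen after its values were seen.

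No replicate pair agreed within sampling noise (chi-square per degree of freedom 3.52 to 18.5). Simulated counts were tested for PAIR1 against KIRA9 at 24 h, with 13630 IDs tested. The procedure recovered 26% of 100 IDs given a log2 change of 0.25 and 90% of 100 given 0.5. Of its calls, 3.33% were false. The changed IDs had a mean of at least 10 CPM, and all other IDs had the same mean in every group. In the real comparison 6.0% of all IDs tested were called higher and 10.3% lower, so its rates may differ.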

Additional observations from a re-analysis of the deposited data

How the results depend on the processing

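The counts of members called at 24 h were recomputed under 21 other settings, and 136 of 144 values stayed within 1.5 times the main count. Shares of all IDs called were not recomputed. The other values were as follows. With library totals in place of TMM, chosen after seeing the data, 4 members rose with KIRA9 against induced cells. With the conflicting times of the induced libraries, 17 fell with PAIR1 and 5 rose with KIRA9 against induced cells, the PAIR1 difference of ENSRNOG00000005935 from induced cells reversed from -0.09 to 0.23, and the cause was not tested. PAIR1 against KIRA9 gave 10 members higher at an adjusted p below 0.01 and 13 without the 6 libraries with the 41-ID set, which leaves fewer samples. The number lower was 1 when only the compared groups were fitted. Leaving out the 6 libraries with the 41-ID set drops replicates 1 and 2 of induced cells at 24 h and keeps only replicate 3. The counts against induced cells in that setting are among the 136, but they rest on 1 induced library and are no check. Leaving out 1 library at a time gave 14 to 18 higher and 0 to 1 lower for PAIR1 against KIRA9, the 1 without PAIR1 replicate 2 or KIRA9 replicate 2. Against uninduced cells, 33 to 36 were lower with KIRA9 and 25 to 29 with PAIR1, and against induced cells 33 to 35 and 27 to 31.

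The number of members, 58, was 5 with a KIRA9 limit of 0.7, 7 with a PAIR1 limit of 0.8, 38 when the PAIR1 libraries also had to lie below all vehicle libraries, and 21 with the conflicting times. It was 50 to 66 with 1 library at 4 h left out and 55 with TMM-scaled CPM, 51 of them shared.

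With a replicate block, 36 members were lower with KIRA9 and 28 with PAIR1 than in uninduced cells, 34 and 32 lower than in induced cells, and 20 higher with PAIR1 than with KIRA9. The numbers share no stated origin: deviations of same-numbered libraries at 24 h correlated from -0.39 to 0.39, above 0.1 in 7 of 18 pairs. Motifs in promoters were not run, since the IDs have no names here. The PAIR1 difference from induced cells for ENSRNOG00000005935 was also called with the block (adjusted p = 0.045 in edgeR).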
